A study of Mus musculus with 6 samples.

Results

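The variable (V) genes of the mouse immunoglobulin loci were taken as every gene whose symbol begins with Ighv, Igkv or Iglv, which gave 348 of the 32285 genes counted in each library. They comprised 185 heavy-chain, 160 kappa and 3 lambda V genes. The study profiled single cells from EMT6 tumor-bearing Cysltr1-deficient mice and wild-type (WT) BALB/c controls; EMT6 is a mouse mammary carcinoma line, and Cysltr1 encodes a receptor for cysteinyl leukotrienes. All mice carried the tumor, and the strain, age and allele of the deficient mice are not given in the labels. Marrow was enriched for hematopoietic progenitors, and spleen and tumor for CD45+ cells; each library held cells pooled from 3 mice, and each tissue and genotype gave 1 library. There was therefore no replicate and no test between genotypes, and differences below compare the libraries, not the genotypes. Intervals in parentheses are exact 95% intervals (Clopper-Pearson for shares, Poisson for counts), and they cover counting error only.

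An antibody variable domain is assembled in each developing B cell by joining 1 V segment to D and J segments at the heavy locus, and to a J segment at the kappa or lambda locus. Because a cell that has made a working chain normally stops recombining, a mature B cell is expected to express a single heavy and a single light V gene, and a population expresses many. Plasma cells, the secreting end stage, devote a large part of their transcripts to the pair of chains they chose as B cells.

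Of the 348 genes, 264 had at least 1 unique molecular identifier (UMI, a tag that marks a captured transcript) in the cells kept, and 84 had none. Detection followed the annotation: 206 of the 216 genes annotated as functional were seen, against 58 of the 130 annotated as pseudogenes. The annotation, of mm10 (GRCm38), describes the C57BL/6J strain, whereas the controls were BALB/c; the effect of that difference on the counts was not tested. The median V gene was 94.3% identical to its nearest copy in both the heavy and the kappa locus, and 20 heavy and 10 kappa genes had a copy at 98% identity or more, so calls among close copies are uncertain.

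The last 60 bases of the leading B-cell genes (3 heavy, 3 kappa) show what a V count covers. They are GENCODE M21 transcript sequences (mm10), 5′ to 3′, with the codon of the conserved second cysteine in capitals. The joint to a D or J segment, which helps tell one clone from another, forms near their 3′ end. The bases joined or added there are not in them. Ighv3-2 lies at chr12:114033803-114034233, Ighv9-3 at chr12:114140692-114141122 and Ighv5-4 at chr12:113597446-113597977, all on the minus strand. Igkv1-117 lies at chr6:68121046-68121827, Igkv1-135 at chr6:67609713-67610508 and Igkv6-17 at chr6:70371439-70371993, all on the plus strand; each gene is a leader exon, an intron and a V exon.
Ighv3-2: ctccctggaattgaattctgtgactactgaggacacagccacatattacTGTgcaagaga
Ighv9-3: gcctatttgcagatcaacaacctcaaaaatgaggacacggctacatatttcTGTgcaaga
Ighv5-4: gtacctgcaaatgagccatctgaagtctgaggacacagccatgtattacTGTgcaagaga
Igkv1-117: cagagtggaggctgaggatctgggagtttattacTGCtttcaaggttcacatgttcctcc
Igkv1-135: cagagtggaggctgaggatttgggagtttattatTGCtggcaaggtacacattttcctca
Igkv6-17: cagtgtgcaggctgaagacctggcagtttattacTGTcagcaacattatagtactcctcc

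Ighv3-2, the heavy gene with the highest mean share of spleen B cells, is annotated as a pseudogene. Set against its nearest copy Ighv3-1 (chr12:113964388-113964818, minus strand, 95.4% identical over the transcript), it lacks 1 base after base 219, and its frame from the first ATG meets a stop at codon 101 of 116, whereas that of Ighv3-1 meets none. The stretch around the gap is shown with bases that differ or have no partner in capitals. Whether the BALB/c copy is intact was not tested.
Ighv3-2: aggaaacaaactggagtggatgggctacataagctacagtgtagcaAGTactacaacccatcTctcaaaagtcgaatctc
Ighv3-1: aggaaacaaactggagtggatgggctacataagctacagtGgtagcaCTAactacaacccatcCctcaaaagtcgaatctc

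Iglv1 (chr16:19085017-19085500) and Iglv2 (chr16:19260401-19260859), both on the minus strand, are shown because the lambda results turn on telling them apart. Over the 300 bases from the start codon they differ at 8, in capitals.
Iglv1: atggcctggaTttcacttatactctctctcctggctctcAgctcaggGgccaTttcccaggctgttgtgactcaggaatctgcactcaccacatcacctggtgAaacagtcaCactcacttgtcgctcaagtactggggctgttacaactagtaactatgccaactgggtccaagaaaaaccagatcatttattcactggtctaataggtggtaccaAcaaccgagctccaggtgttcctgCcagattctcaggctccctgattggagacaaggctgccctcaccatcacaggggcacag
Iglv2: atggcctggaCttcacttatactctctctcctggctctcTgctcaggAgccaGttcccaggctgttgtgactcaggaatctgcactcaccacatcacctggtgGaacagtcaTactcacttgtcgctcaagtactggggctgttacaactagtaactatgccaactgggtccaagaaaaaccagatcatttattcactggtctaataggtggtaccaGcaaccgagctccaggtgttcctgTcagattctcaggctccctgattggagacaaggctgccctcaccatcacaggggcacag

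Ighv1-85 (chr12:116000028-116000461, minus strand) is the gene that marked a set of marrow cells described at the end. Its first 150 bases differ from those of its nearest copy, Ighv1-84 (chr12:115980702-115981134, minus strand), at 10 bases, in capitals, and the whole transcripts are 94.0% identical.
Ighv1-85: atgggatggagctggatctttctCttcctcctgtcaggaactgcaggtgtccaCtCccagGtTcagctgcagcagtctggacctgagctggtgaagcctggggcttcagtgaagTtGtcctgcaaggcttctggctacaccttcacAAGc
Ighv1-84: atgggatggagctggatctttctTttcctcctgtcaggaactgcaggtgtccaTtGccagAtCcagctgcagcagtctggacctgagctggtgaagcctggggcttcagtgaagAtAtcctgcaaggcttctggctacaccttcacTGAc

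Libraries held 5852 to 9740 barcodes, of which 5036 to 8319 were kept, with median depths of 2580 to 12817.5 UMIs per cell. Any pair of libraries shared 46 to 128 barcodes (0.786% to 1.43% of the smaller). Counts of Cysltr1, the targeted gene, went against the labels in 2 tissues: as CPM (UMIs scaled to an equal total per library) they were 4.76 in the marrow library labelled WT against 24.6 in the one labelled deficient, 6.89 against 33.2 in spleen, and 9.76 against 7.51 in tumor. Whether the allele leaves a transcript is not stated, so libraries are called below by their labels only. B cells were cells with 2 or more Cd79a UMIs and under 10 Jchain UMIs, and plasma cells those with 10 or more Jchain UMIs; Cd79a is the signalling partner of the B cell receptor and Jchain joins IgM and IgA multimers. All 8 B cell markers, the gate gene Cd79a counted, were found in at least 10% of spleen B cells of both libraries, and none of the 8 T cell markers was. All 9 plasma cell markers, the gate gene Jchain counted, were found in at least 10% of the spleen plasma cells. Of 7 markers of plasmacytoid dendritic cells, 3 were in at least 10% of these cells in both libraries, with the list summing to 254 and 239 CPM. Siglech, the defining marker of that cell type, was at 0 UMIs in both.

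Spleen gave 1225 B cells in the library labelled WT and 1481 in the one labelled deficient, with median depths of 2750 and 3456 UMIs. A V gene was assigned to a cell when it had 2 or more UMIs and over 50% of the UMIs of its locus. In the library labelled WT, 861 cells (70.3%) had an assigned heavy and 1128 (92.1%) an assigned kappa gene; in the other, 1140 (77.0%) and 1362 (92.0%) had one. Both repertoires were broad. The 861 heavy assignments fell on 80 genes and the 1140 on 90, and the expected number in 861 cells of the latter was 86.3.

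Evenness was summarised as the effective number of genes, the inverse of the chance that a pair of cells carries the same gene. It was 35.5 for heavy genes in the library labelled WT and 42.8 in the one labelled deficient, and 50.1 and 51.3 for kappa. Pielou evenness, which is 1 when every gene is equally common, was 0.889 and 0.887 for heavy and 0.912 and 0.925 for kappa. The 5 leading heavy genes held 27.5% and 22.8% of assigned cells, and the 5 leading kappa genes 18.5% and 18.7%. Counted by cells, heavy use was more concentrated than kappa use in both libraries. With UMIs in place of cells the order turned, with effective numbers of 40.8 heavy and 35.8 kappa genes in the library labelled WT and 42.9 and 38.8 in the other.

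Shares of single genes were close in the libraries. Across the 96 heavy genes with an assigned cell, shares in the libraries had a Pearson correlation of 0.897 and a Spearman correlation of 0.902, and across the 90 kappa genes 0.920 and 0.924; the points share annotation, counting and V gene copy number, and genes are not replicates. Position in the locus was alike too. The 61 heavy V genes nearest the J segments held 55.9% of assigned cells in the library labelled WT and 54.1% in the other, and the farthest 62 held 19.3% and 19.9%. In the kappa locus, the nearest 53 genes held 50.2% and 47.2%, the middle 53 held 15.5% and 18.6%, and the farthest 54 held 34.3% and 34.2%.

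**Figure D1:**
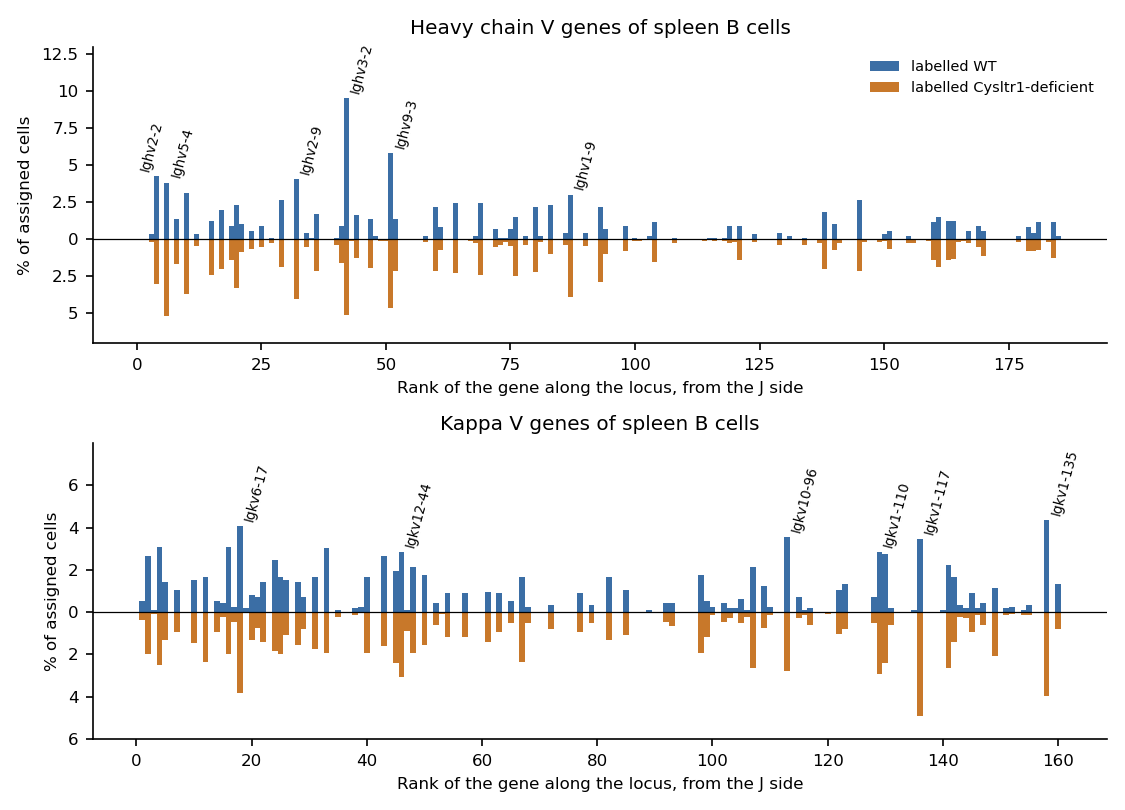
Share of assigned spleen B cells (%) that use each heavy or kappa V gene, by the gene's rank from the J segments; bars above 0 are the library labelled WT and bars below it the library labelled deficient. Ighv3-2 stands at 9.52% against 5.09%.

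Ighv3-2 was picked out because its intervals in the spleen libraries did not overlap, so its difference is chosen from the values that describe it. It was assigned to 82 cells, or 9.52% (7.65 to 11.7), in the library labelled WT, and to 58 cells, or 5.09% (3.89 to 6.53), in the one labelled deficient, a ratio of 0.534. Of the 83 V genes with 20 or more assigned cells (34 heavy, 46 kappa, 3 lambda), it was the 1 gene with intervals that did not overlap (1.20% of those compared). The share was lower in the library labelled deficient under all 7 alternative settings, with ratios from 0.488 to 0.585. These settings re-use the cells on which the gene was picked out, so they are no separate support. In spleen T cells, Ighv3-2 had 11 UMIs in 11 cells of the library labelled WT and 114 in 99 of the other. The part of such UMIs in its share of B cells was not tested. The Ighv3 family held 14.4% (12.1 to 16.9) and 9.65% (7.997 to 11.51), and was the 1 family without overlap among 33 heavy and kappa families with cells (3.03%). Pseudogene-annotated heavy genes together held 15.4% (13.1 to 18.04) and 11.1% (9.37 to 13.1), spread over 10 genes in each library. Both groups contain Ighv3-2, so neither difference is separate from that gene. Its 82 and 58 cells were among 124 and 110 Ighv3 cells, and among 133 and 127 cells with a pseudogene-annotated heavy gene. The summed neutrophil markers also differed between these B cells, at 6729 CPM in the library labelled WT and 1168 in the other; their part in the V shares was not tested.

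Of the other pseudogene-annotated heavy genes, Ighv1-14 and Ighv4-2 stood the other way, on few cells and with overlapping intervals. Ighv1-14, whose reference frame from the first ATG meets a stop at codon 5, was assigned to 19 cells (2.21%) in the library labelled WT and 33 (2.89%) in the one labelled deficient, and Ighv4-2, with a stop at codon 65, to 8 (0.929%) and 18 (1.58%). Both were picked out after their values were seen, and both were assigned more cells in the library where Ighv3-2 had fewer. They do not stand for the rest of the pseudogene-annotated genes. Ighv4-2 and Ighv1-14 also had assigned plasma cells in spleen, 2 and 2 in the library labelled WT and 2 and 0 in the other.

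The other leading heavy genes overlapped between the libraries. Ighv9-3 was assigned to 50 cells (5.81%) in the library labelled WT and 53 (4.65%) in the one labelled deficient. Ighv5-4, the sixth V gene from the J segments, was assigned to 33 (3.83%) and 59 (5.18%). Ighv2-9 stood at 4.06% and 4.04%, Ighv2-2 at 4.30% and 2.98%, and Ighv1-9, of the large J558 family, at 3.02% and 3.86%. The larger families were also close: Ighv1 held 31.6% and 33.0%, Ighv2 15.9% and 15.5%, and Ighv5 13.4% and 15.8%.

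The intervals of the kappa leaders overlapped as well. Igkv1-117 was assigned to 39 cells (3.46%) and 67 (4.92%), Igkv1-135 to 49 (4.34%) and 54 (3.96%), and Igkv6-17 to 46 (4.08%) and 52 (3.82%). Igkv10-96 stood at 3.55% and 2.79%, Igkv12-44 at 2.84% and 3.08%, and Igkv1-110 at 2.84% and 2.94%. Of the kappa families, Igkv4 held 147 cells and 210 (13.03% and 15.4%) over 21 of its 33 genes, Igkv6 held 179 and 171 (15.9% and 12.6%), and Igkv1 135 and 176 (11.97% and 12.9%). Igkv7, a family of 1 gene (Igkv7-33), was assigned to 0 B cells in either library but to 4 plasma cells of the one labelled WT. None of the 46 kappa genes with 20 or more cells had intervals apart. Among all 83 V genes with that many cells, 2 differed by 2-fold or more in share, both with overlapping intervals and both picked out after their values were seen: Ighv1-7, with 20 cells and 11 (ratio 0.415), and Igkv13-85, with 6 and 16 (ratio 2.21).

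**Figure D2:**
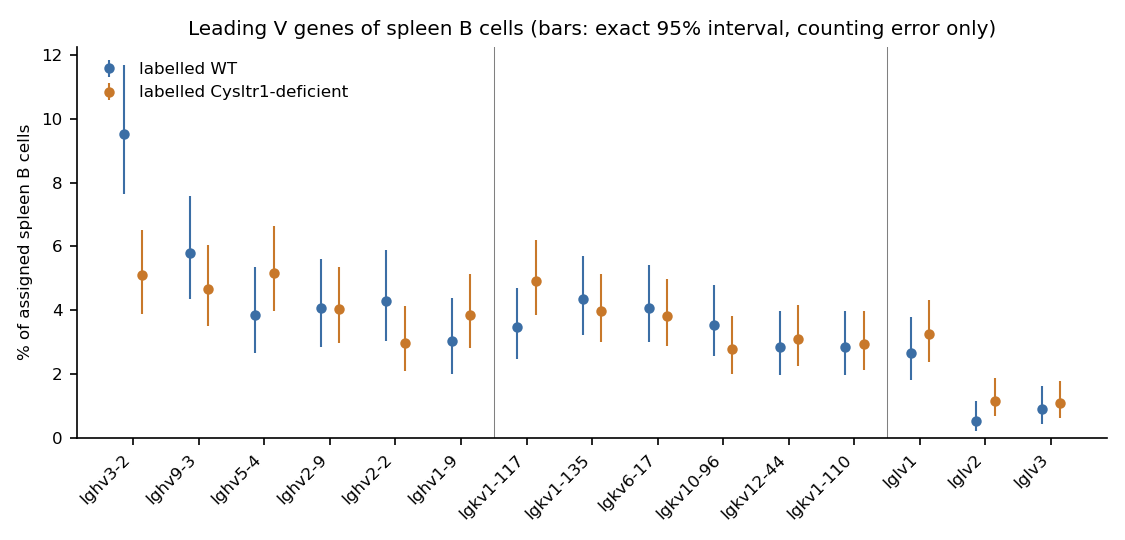
Share of assigned spleen B cells (%) for the leading heavy, kappa and all lambda V genes, with exact 95% intervals, in the libraries labelled WT and deficient. Intervals overlap for every gene but Ighv3-2.

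Lambda light chains, a small part of the mouse repertoire, were assigned to 46 of 1125 light-assigned B cells in the library labelled WT, or 4.09% (3.01 to 5.42), and to 76 of 1383, or 5.495% (4.35 to 6.83), in the one labelled deficient. The intervals overlapped. Iglv1 led with 30 cells and 45, followed by Iglv3 with 10 and 15, and Iglv2 with 6 and 16. Iglv2 and Iglv3 were thus 1 cell apart in the library labelled deficient.

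Summed UMIs showed more differences than assigned cells did. With 30 or more UMIs over both libraries and a pseudocount of 1 CPM, 12 of 186 V genes (6.45%) were 2-fold or more higher in B cells of the library labelled deficient, against 0.738% of all genes tested, and 17 (9.14%) were lower, against 1.68%. The median V gene differed by 0.02 on the log2 scale and the median of all genes by 0.03. Of the called genes, 11 of the 12 higher and 14 of the 17 lower had fewer than 20 assigned cells, so they rest on few B cells. Some rest on none: Igkv7-33 had 164 UMIs in 144 B cells (11.8%) of the library labelled WT and was assigned to 0 of them, while 14.8% of T cells of that library, at a median depth of 3219 UMIs, also held it. In the library labelled deficient it had 9 UMIs in 3 B cells and was in 0 of 3548 T cells. Ighv7-1 (105 B cells against 15) and Igkv4-61 (116 against 12) behaved alike, and were in 254 and 292 of the 2654 T cells of the library labelled WT; these 3 were picked out after their values were seen.

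T cells and neutrophils do not rearrange these loci, and the V UMIs in their droplets differed in amount and in gene between the libraries. A kappa V UMI was found in 79.7% of T cells and 75.1% of neutrophils of the spleen library labelled WT, and in 37.0% and 37.8% of those of the library labelled deficient. For heavy V UMIs the shares were 37.2% and 38.5%, against 11.6% and 13.6%. Median depths were 3219 and 3262 UMIs for T cells and neutrophils in the first and 4136 and 2944 in the second. Within the library labelled WT, log UMI counts of 186 genes in T cells and in neutrophils correlated at 0.887, and within the other, over 155 genes, at 0.751. Both cell types of a library share its droplet fluid and its plasma cells, and their gates do not exclude each other, so cells may be shared. T cells of the 2 spleen libraries correlated at 0.352 over 184 genes.

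The number of V genes per B cell was read beside that background. With a gene counted at 2 or more UMIs, 27.8% of B cells (340) in the library labelled WT and 33.2% (492) in the one labelled deficient held 2 or more heavy V genes, and 44.2% (542) and 33.4% (495) held 2 or more kappa genes. After thinning every cell to 2000 UMIs, which left out 207 and 86 shallower cells, the heavy shares were 14.3% and 15.8% and the kappa shares 34.1% and 25.9%. In T cells at the same threshold, 2 or more kappa genes were found in 2.64% and 0.197%, and 2 or more heavy genes in 0.339% and 0%, where 0 of 3548 cells allows up to 0.0846%. The order of the libraries turned with the threshold: at 1 UMI the heavy shares were 69.6% and 61.9%, and at 5 UMIs the kappa shares were 18.4% and 20.4%.

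The second gene of a cell differed by locus. In B cells with 2 or more heavy genes, the second belonged to the same family as the first in 66.5% (226 of 340) and 71.3% (351 of 492), where an unrelated pair of leading genes would share a family in 16.2% and 20.3%. For kappa, the share was 9.96% and 6.87%, against 9.67% and 9.79% for unrelated genes. The pairs found most often were close copies, Ighv3-1 with Ighv3-2 in 15 cells of the library labelled WT and Ighv5-4 with Ighv5-9 in 32 of the other. Ighv3-1, the intact copy shown above, was assigned to no B cell in either library, which allows up to 0.348% of 861 and 0.263% of 1140. The second kappa gene was among the 10 kappa genes most abundant in the same library's T cells in 38.2% and 29.5% of cells, and the second heavy gene in 51 of 340 and 113 of 492. How often the leading gene of a cell falls among those 10 was not computed. These shares thus have no expected value beside them and cannot tell free RNA from genes common in B cells.

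**Figure D3:**
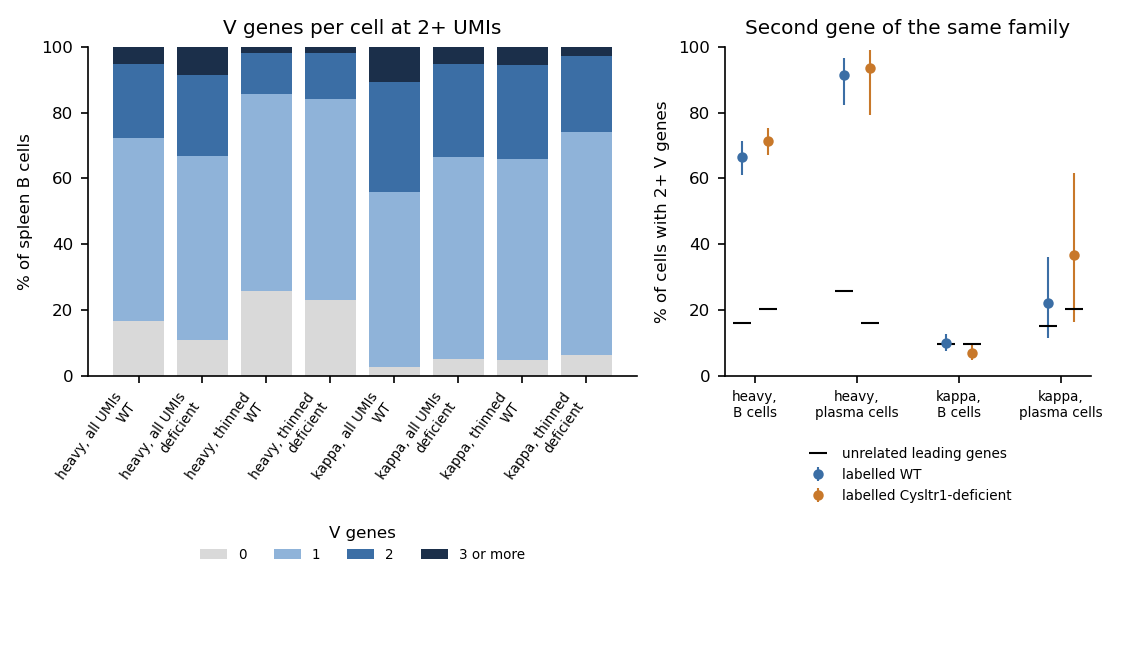
Left, percent of spleen B cells with 0, 1, 2 or 3 or more V genes at 2 or more UMIs, with all UMIs and thinned; right, percent of cells whose second V gene is in the family of the first, with exact 95% intervals and a black dash for unrelated leading genes. In B cells, heavy second genes (66.5% and 71.3%) lie above the dash, and kappa ones (9.96% and 6.87%) near it.

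Where a locus had 5 or more UMIs in a B cell, the leading gene held a median of 80.0% and 83.3% of heavy V UMIs and 85.7% and 92.3% of light V UMIs in the libraries labelled WT and deficient. In spleen plasma cells, which carry far more V transcripts, the light share was 97.8% and 99.1% and the heavy share 79.8% and 78.5%. Marrow plasma cells had heavy shares of 94.8% and 96.5%, in 50 and 8 cells. In spleen plasma cells, 98.8% and 99.5% of the heavy UMIs outside the leading gene belonged to its family.

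A few genes were seen under 1 genotype label alone. Of 224 V genes with 10 or more UMIs over all 6 libraries, 1 (0.446%) had 10 or more in libraries labelled WT and 0 in the others, against 0.0786% of all genes, and 1 had the reverse pattern, against 0.0419%. Igkv12-40, a pseudogene with a stop at codon 57, had 46 UMIs in 8 B cells of the spleen library labelled WT (0.653%, 0.282 to 1.28), at a median of 7 and at most 10 per cell; 0 of 1481 B cells in the other library allows up to 0.203%. It led the kappa genes alone in 1 of the 8 cells and tied for the lead in 1, while another kappa gene led in 6; it held the majority needed for assignment in 0. Igkv6-29 had 18 UMIs in 9 cells of the spleen library labelled deficient (7 B cells, 1 plasma cell), at most 4 per cell, and has a copy, Igkv6-20, at 98.7% identity. It had UMIs in libraries labelled WT once predicted doublets were kept. Over all UMI counts, 247 V genes were detected in libraries labelled WT, 251 in those labelled deficient and 234 in both.

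Plasma cells were few but held most V transcripts. Spleen gave 77 in the library labelled WT and 37 in the one labelled deficient, at median depths of 20132 and 15219 UMIs, and these cells held 91.4% (702826 of 768676) and 78.2% (253770 of 324571) of the library's V UMIs. V genes made up 45.8% and 41.2% of plasma cell UMIs. Neutrophil markers summed to 5837 CPM in these cells in the library labelled WT (5 of 6 markers in at least 10% of cells) and to 53.6 CPM in the other (2 of 6); their part in the plasma cell values was not tested. By contrast, V genes summed to 10658 CPM in B cells of the library labelled WT and 10605 in those of the other. Over all kept cells, the V sum was 2.32 times higher in the spleen library labelled WT (21019 CPM against 9047); plasma cells were fewer in the library labelled deficient and each held fewer V UMIs (median 9498 and 5227). Whether plasma cell numbers follow the spleen or the recovery of cells cannot be told apart.

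Because so few cells were read, gene totals followed single cells. Of 146 V genes tested, 56 (38.4%) were 2-fold or more higher in plasma cells of the library labelled deficient and 71 (48.6%) lower, against 7.61% and 4.68% of all genes. Ighv9-3 led the heavy genes of the library labelled WT with 31169 UMIs (16.6%), assigned to 6 of 66 cells, and had 2 UMIs in the other library. Ighv3-2, with 12208 UMIs from 4 assigned cells in the first, led the second with 11452 UMIs (16.5%) from 3 of 35. Ighv2-9 was the third in both, with 11853 and 4704 UMIs, and Ighv4-2, another pseudogene by annotation, was second in the library labelled deficient with 8721 UMIs from 2 cells.

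Iglv2 led the light genes of both spleen libraries, although Iglv1 was the lambda gene most used by B cells. It had 52825 UMIs (10.2%) from 7 of 77 plasma cells in the library labelled WT, and 22045 (11.95%) from 4 of 37 in the other, where 1 cell gave 63.5% of them. Iglv1 (36213 UMIs from 4 cells) and Igkv1-88 (33588 from 3) followed in the first, and Igkv4-59 (18622 from 4) and Igkv3-5 (15853 from 2) in the second. Lambda genes were assigned to 12 of 77 plasma cells, or 15.6% (8.32 to 25.6), and to 4 of 37, or 10.8% (3.03 to 25.4). In the library labelled WT, that interval lies above the one for B cells given earlier; in the other the intervals overlap. A lambda V UMI was found in 93.5% and 97.3% of plasma cells, so the assignment, not detection, separates lambda cells.

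Most spleen plasma cells carried Ighm, the constant segment of IgM: 57 of 77 and 31 of 37. In marrow, Ighm led in 37 of 50 cells of the library labelled WT and 3 of 8 of the other, and Igha, of IgA, in 10 of 50 and 5 of 8. In spleen, Ighg1 was the leading constant segment in 10 of 77 cells of the library labelled WT, or 12.99% (6.41 to 22.6), and in 1 of 37, or 2.70% (0.0684 to 14.2), of the other, with overlapping intervals. Of the 10 constant segments tested in plasma cells, 3 were 2-fold or more lower in the library labelled deficient, Ighg1 (4877 UMIs against 21), Ighg2b (942 against 4) and Ighg3 (2086 against 23), and 1 was higher, Ighe (391 against 520). These totals rest on few cells: Ighg2b led in 2 and 0 cells, Ighg3 in 1 and 1, and Ighe in 1 and 2. In B cells, 0 of 10 were higher and 1, Ighg2b with 37 UMIs and 18, was lower. Of 13 receptor, recombination and secretion genes tested in B cells, Sdc1, a plasma cell surface proteoglycan, was higher (7 UMIs and 31) and Jchain lower (434 and 271). Jchain set the limits of both the B cell and the plasma cell gate, and Cd79a those of the B cell gate. Both are among the genes tested. The Jchain call in B cells thus comes from counts cut at under 10 UMIs per cell and is no support for a difference. Of 13 tested in plasma cells, 2 were higher, the transcription factors Prdm1 (54 UMIs and 59) and Ebf1 (69 and 71), and 0 lower. Of all genes tested, 0.738% were called higher and 1.68% lower in B cells, and 7.61% and 4.68% in plasma cells.

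Paired heavy and light assignments recurred in plasma cells. In spleen, 66 paired cells of the library labelled WT held 60 distinct pairs and 35 of the other held 31; marrow gave 48 paired cells with 38 pairs in the library labelled WT and 7 with 7 pairs in the one labelled deficient. Spleen B cells held 648 pairs in 796 paired cells of the library labelled WT and 830 in 1072 of the other, with at most 5 cells to a pair; pairs were not compared at equal cell numbers. Cells in pairs seen more than once were 10 of 66 and 7 of 35 in spleen plasma cells, 15 of 48 in marrow plasma cells of the library labelled WT, and 257 of 796 and 420 of 1072 in spleen B cells. In marrow plasma cells of the library labelled WT, Ighv7-1 led the heavy UMIs (16777, 20.4%) and Igkv15-103 the light UMIs (40117, 15.1%), and the 2 were paired in 6 cells. All 6 expressed Ighm. Whether cells with the same pair are 1 clone was not tested, since the counts carry no junction.

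The repeated pairs, named after their values were seen, include textbook ones. Ighv7-1 with Igkv7-33, the pair known from antibodies to phosphorylcholine, was found in 4 of 66 spleen plasma cells and 1 of 48 marrow plasma cells of the libraries labelled WT. It was in 0 of 796 paired B cells there, which allows up to 0.377%, and in 0 of 35 plasma cells of the spleen library labelled deficient, which allows up to 8.57%. Ighv11-2 with Igkv14-126, known from B-1 cells that bind phosphatidylcholine, was found in 3 marrow and 1 spleen plasma cell of the libraries labelled WT and in 1 marrow plasma cell of the one labelled deficient. Ighv12-3 with Igkv4-91, known for the same specificity, was found in 2 marrow plasma cells of the library labelled WT, and in 1 and 2 spleen B cells of the libraries labelled WT and deficient. In the spleen library labelled deficient, Ighv12-1 with Igkv15-103 was found in 3 plasma cells and Ighv1-69 with Igkv6-15 in 2. The leading constant segment was Ighm in the cells of the first pair and Ighe in those of the second.

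Across libraries, 4 pairs were shared by spleen and marrow plasma cells labelled WT, 6.67% of the spleen pairs and 10.5% of the marrow pairs. Spleen plasma cells labelled deficient and marrow plasma cells labelled WT shared 2, 6.45% of the spleen and 5.26% of the marrow pairs. The spleen libraries labelled WT and deficient shared 1, Ighv12-1 with Iglv2, which is 1.67% of the pairs in the first and 3.23% in the second. The marrow library labelled deficient, with 7 pairs, shared 1 with each library labelled WT and 0 with the spleen library labelled deficient.

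In marrow, enriched for progenitors, V genes were almost wholly plasma cell RNA. The 50 plasma cells of the library labelled WT held 98.02% of its V UMIs, and the 8 of the library labelled deficient 95.04%. Over all cells the V sum was 5077 CPM in the first and 1030 in the second, 4.93 times apart. Kappa V UMIs were nonetheless spread over cells that do not make them: 44.5% of 3010 Mpo-high myeloid progenitors (5 or more UMIs of Mpo, myeloperoxidase) in the library labelled WT held one, against 6.81% of 2481 in the other, at median depths of 16090 and 9401 UMIs. Neutrophils of the same libraries (50 or more S100a8 UMIs) stood at 44.7% and 6.91%, at median depths of 13078 and 4045 UMIs. The few T cells (26 and 42) stood at 57.7% and 11.9%. The neutrophil and Mpo gates overlap: all 5 myeloid progenitor markers were in at least 10% of these neutrophils in both libraries. Those markers, Mpo among them, summed to 47523 and 39665 CPM in the neutrophils, against 42733 and 49039 in Mpo-high cells. Heavy V UMIs were in 9.37% and 2.90% of Mpo-high cells and in 11.9% and 6.91% of neutrophils. Tumor T cells held a kappa V UMI in 0 of 62 and 0 of 146, which allows up to 4.84% and 2.05%.

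**Figure D4:**
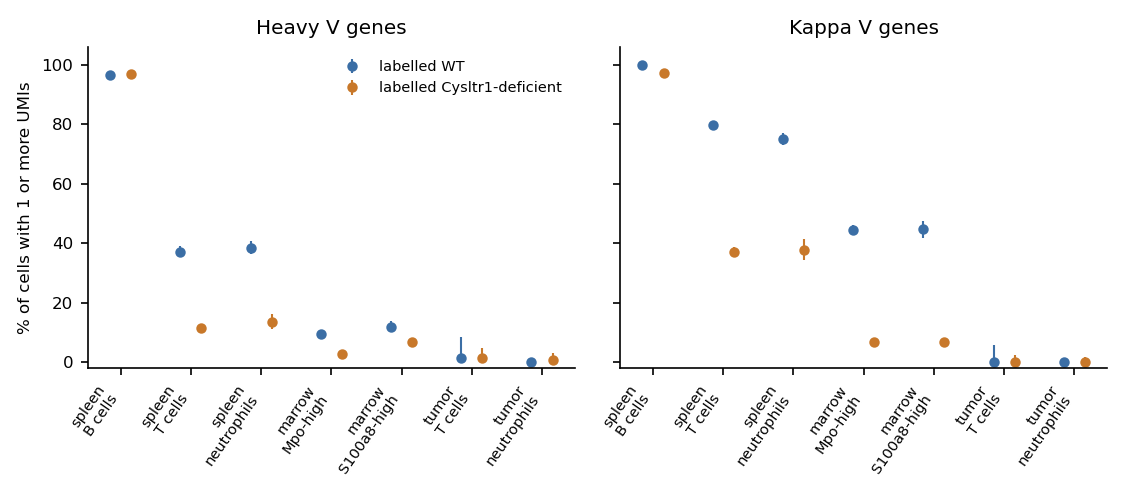
Percent of cells with at least 1 heavy (left) or kappa (right) V UMI by cell type and library, with exact 95% intervals; S100a8-high marrow cells are the neutrophils of the text. In the T cells, neutrophils and Mpo-high cells plotted, the spleen and marrow libraries labelled WT lie above those labelled deficient, as with kappa in spleen T cells at 79.7% and 37.0%.

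The V genes in Mpo-high cells were different in the 2 marrow libraries. Of 21 V genes with 30 or more UMIs there, 16 had 0 UMIs in the library labelled deficient, 1 had 0 in the one labelled WT, and 2 had 30 or more in both; 1 was called 2-fold higher and 14 lower, against 0.167% and 0.407% of all genes. Igkv1-117 (387 UMIs), Igkv9-129 (332), Igkv3-12 (269) and Igkv14-111 (250) led the light genes in the library labelled WT, and Igkv14-126 (182), Igkv4-70 (47), Igkv14-100 (11) and Igkv3-4 (7, all in 1 cell) in the other. Across 114 genes, log counts in the Mpo-high cells of the 2 libraries correlated at -0.0375. Mpo-high cells and neutrophils correlated at 0.824 over 110 genes within the library labelled WT and at 0.545 over 50 within the other. These gates can hold the same cells: Igkv3-4 had 7 UMIs in 1 cell in each gate of the library labelled deficient. The within-library values may thus compare cells partly with themselves, and cannot be set against the one between libraries. Mpo-high and plasma cells of 1 library correlated at 0.268 over 159 genes and at -0.00884 over 68.

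Some of these leaders were abundant in a plasma cell of the same library. Igkv14-126 had 7053 UMIs in a single plasma cell of the library labelled deficient, and Igkv3-12 2688 UMIs in a single plasma cell of the one labelled WT. Igkv14-111 was not: the kept plasma cells held 7 of its UMIs and 177 Mpo-high cells held 250. Its source was not tested. The other heavy leaders in Mpo-high cells of the library labelled WT were Ighv9-1 (25 UMIs), Ighv5-6 (16) and Ighv1-15 (16), and of the library labelled deficient Ighv1-66 (17), Ighv11-2 (10) and Ighv7-3 (4).

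Ighv1-85, the second farthest heavy V gene from the J segments (rank 184 of 185), led the heavy genes of Mpo-high cells in both marrow libraries, with 81 UMIs in 15 cells and 102 in 18, and up to 41 and 28 in 1 cell. It followed Dntt, the terminal transferase of early lymphoid progenitors that adds bases at V(D)J junctions; this gate of 2 or more Dntt UMIs was added after the data were seen. In Dntt-high marrow cells it had 520 UMIs in 43 of 121 cells, 35.5% (27.0 to 44.8), in the library labelled WT and 591 in 61 of 117, 52.1% (42.7 to 61.5), in the other, with overlapping intervals. Elsewhere in marrow it was in 16 of 4865 cells (0.329%) and 12 of 5942 (0.202%). It made up 75.9% and 76.3% of the heavy V UMIs of Dntt-high cells. With Dntt at 1 or more UMIs the shares of cells were 19.6% and 36.4%, and at 5 or more they were 60.0% and 66.7%, so both the level and the gap between the libraries moved with the gate.

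The other heavy V UMIs of these cells were mostly from the same family. Apart from Ighv1-85 they numbered 165 and 184, of which 161 and 177 belonged to the Ighv1 family, which fills the far part of the locus. Light V UMIs numbered 112 and 16, and 38.8% and 9.40% of Dntt-high cells held a kappa V UMI, from 22 genes and 4. Ighv1-66 came next with 65 UMIs in 20 cells and 84 in 37, and Ighv1-84, the nearest copy shown above, had 22 and 18. Of the cells with 3 or more Ighv1-85 UMIs, 28 and 48 in number, 26 and 42 held an Ighm UMI and 2 and 3 an Igkc UMI. Flt3, a cytokine receptor of early progenitors, was found in 27 and 39 of them, and Il7r, the interleukin-7 receptor chain, in 15 and 28. The myeloid progenitor marker Mpo was in 22 and 37 of the same cells. Of B lineage genes, Ebf1 was in 10 and 19, Rag1 in 3 and 14, Cd79a in 3 and 7, and Pax5 in 1 and 4. The Dntt gate showed 5 of 5 myeloid progenitor and 5 of 7 plasmacytoid dendritic cell markers in at least 10% of cells in both libraries. By the same limit it showed 2 and 4 of 8 B-cell-precursor markers, the gate gene Dntt counted, and 1 of 8 B cell markers in both. Without cells holding a Siglech UMI the shares with Ighv1-85 were 34.6% and 52.9%. Whether the transcripts come from rearranged or unrearranged genes was not tested.

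**Figure D5:**
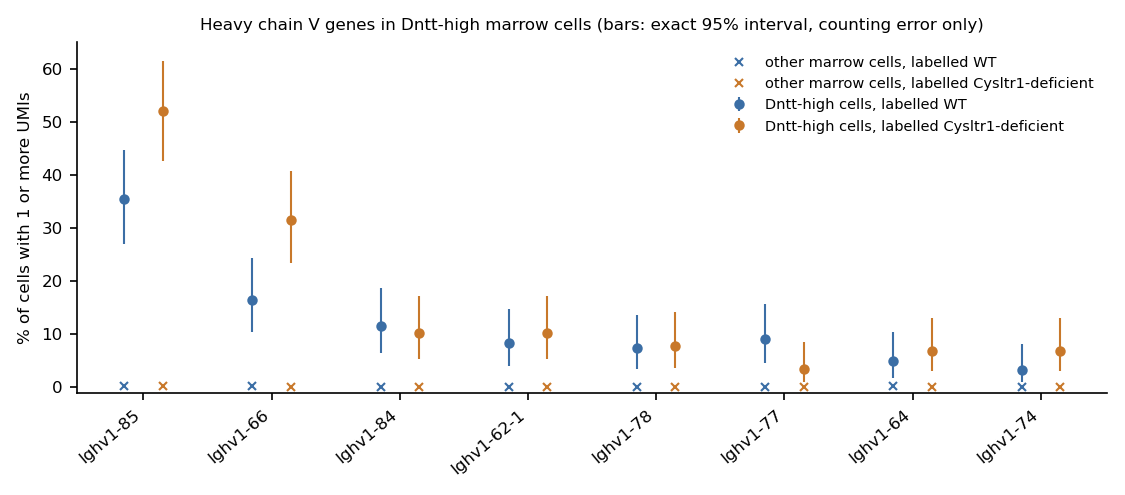
Percent of Dntt-high and of all other marrow cells with a UMI of each leading heavy V gene, with exact 95% intervals, in the libraries labelled WT and deficient. Ighv1-85 reaches 35.5% and 52.1% of Dntt-high cells, against 0.329% and 0.202% of the others (crosses).

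Ighv1-85 was not a leading gene of mature cells. In spleen B cells it was assigned to 10 cells in the library labelled WT and 14 in the one labelled deficient, and plasma cells of marrow held 10 of its UMIs and 1.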

How the data were processed

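UMI counts per gene and cell were used as deposited by the authors, for 6 libraries of 1 sample each. Per the submitters' processing notes they came from Cell Ranger 6.0.0 on mm10; per the file headers the version was 6.1.0. Kits reading the 5' end and the 3' end are both given, per the labels' protocols, so which end of V transcripts was read is not settled, nor is strand use in counting. Antibody features were left out.

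Members, gates and lists were chosen with earlier results of these data known. Cells with at least 300 genes and 500 UMIs and at most 10% mitochondrial UMIs were kept; predicted doublets (the highest Scrublet scores in scanpy 1.11.5, in a number that grew with the library's cells) numbering 221 to 643 per library were removed. Neutrophils were cells with 50 or more S100a8 UMIs and T cells those with 2 or more Cd3e UMIs, both without Cd79a UMIs and with under 10 Jchain UMIs. These gates and the Mpo gate did not exclude one another. B cells held 2 or more Cd79a and under 10 Jchain UMIs; 69 and 31 spleen cells passing both limits went to plasma cells. Genes were named by rank: the 6 leading heavy and kappa genes of B cells, all lambda genes, genes whose intervals did not overlap among those with 20 or more cells, genes seen under 1 label, and the leading genes of plasma (3 per chain) and Mpo-high cells (4 per chain). Fold changes are on the log2(CPM + 1) scale. Python 3.11.15, numpy 2.4.6, scipy 1.17.1 and pandas 2.3.3 were used, and the calculations were tested on simulated data. Identity between V genes came from pairwise alignment in biopython 1.88. Alternatives covered doublets, gates, UMI minimums, depth and pseudocount. No replicate existed, so no p-value was computed; the number of molecules read limits precision, as the intervals show.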

Additional observations from a re-analysis of the deposited data

Results flagged for a closer look

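Summed over all kept cells, V genes moved one way in tumor and the other way in spleen and marrow. The log2 ratio of CPM, library labelled deficient over library labelled WT, was 1.59 in tumor, -1.22 in spleen and -2.30 in marrow. The tumor value rests on 82 UMIs (1.28 CPM) in the library labelled WT and 191 (3.86 CPM) in the other, against 768676 and 324571 in spleen and 354190 and 44592 in marrow. With 1 library per tissue and label, the difference between tissues was not tested.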

How the results depend on the processing

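Of 168 alternative values for 26 results, 115 moved by less than their counting interval (for counts of genes, by less than 1.5 times) and 53 moved more. The order of the libraries was compared apart from this. For the percent of B cells with 2 or more heavy V genes it held in 8 of 9 settings, and likewise for kappa. The effective number of heavy genes was higher in the library labelled deficient under all 9 settings, the reported one included (ratio 1.05 to 1.27), as was the lambda share under all 8 (1.21 to 1.495).

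The percent of B cells with 2 or more V genes, library labelled WT first, was 14.3 and 15.8 (heavy) and 34.1 and 25.9 (kappa) after thinning. With 1 or more Cd79a UMIs it was 24.4 and 30.2, and 39.2 and 30.5. With genes at 1 or more UMIs it was 69.6 and 61.9, and 85.5 and 62.7, and at 5 or more 4.16 and 7.77, and 18.4 and 20.4. With Jchain-high cells kept in, the heavy value for the library labelled WT was 31.2.

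V genes 2-fold apart in B cells numbered 36 higher and 83 lower with Jchain-high cells kept in, 5 higher with 100 or more UMIs per gene, and 2 higher and 7 lower with a pseudocount of 10 CPM. Genes seen under the deficient label alone numbered 0 with doublets kept, 0 with all barcodes and 0 at 30 or more UMIs. At 3 or more UMIs there were 7 under the WT and 5 under the deficient label, and with up to 1% of the sum allowed in the other, 7 and 2.

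The leading spleen plasma cell gene held 14.2% of heavy UMIs in the library labelled WT and 16.4% in the other with doublets kept, 14.1% and 16.3% with all barcodes, and 9.09% and 11.4% counting each cell once. This turned the order of 16.6% and 16.5% as reported, which held in 4 of 7 settings. The light values were 9.11% and 11.6%, 9.09% and 11.48%, and 9.09% and 10.8%.

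Marrow V sums were 4756 and 1359 CPM with doublets kept, 4686 and 1349 with all barcodes, 4408 and 647 after thinning, and 100.7 and 39.5 without cells past the Cd79a or Jchain limits. Marrow cells with a V UMI fell from 51.0% and 12.2% to 17.8% and 6.20% after thinning. No paired analysis was possible because the labels carry no replicate numbers and each group had 1 library.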

Other observations

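Constant segments of the lambda locus were read in most kappa-assigned B cells. In kappa-assigned spleen B cells, Iglc1, Iglc2 and Iglc3 together had 2.35 UMIs per Igkc UMI in the library labelled WT and 2.38 in the one labelled deficient, and Iglc2 was found in 93.5% and 96.9% of these cells. In lambda-assigned B cells (46 and 76) the ratio was higher, 4.15 and 8.03. In plasma cells it was 0.157 and 0.188 for kappa-assigned and 40.5 and 10.9 for lambda-assigned cells. T cells of the library labelled WT held 481 Igkc and 102 Iglc2 UMIs. The cause was not tested.

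Tumors gave 8 B cells in the library labelled WT and 7 in the one labelled deficient. A light V gene was assigned in 7 cells of each and a heavy one in 2 and 3. Igkv6-23, in 2 cells of the library labelled WT, was the 1 gene assigned to more than 1 tumor B cell of a library.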
